A study of Mus musculus with 4 samples.

Results

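The 10 genes described here encode the contractile apparatus of peritubular myoid cells, the smooth muscle-like cells that wrap the seminiferous tubules. They were chosen by symbol, with earlier results of these data known: *Acta2*, *Actg2*, *Myh11*, *Myl9*, *Mylk*, *Tpm2*, *Cnn1*, *Tagln*, *Lmod1* and *Des*. All 10 were among the 54920 genes listed for each library, and all 10 passed the expression filter that 23952 genes passed. They were measured by RNA-seq of ID4-EGFP+ cells sorted from mouse testes at postnatal day 8, in 2 control and 2 *Cnot3*-cKO libraries. Both groups carried floxed *Cnot3* alleles and the *Id4-eGfp* reporter, and both had received 4-OHT from day 1 to day 3 after birth. *Cnot3*-cKO mice also carried *Ddx4*-creER, a tamoxifen-inducible Cre whose promoter is active in germ cells and not in myoid cells. The control libraries are labelled wild-type, and the labels give the cell type of all 4 only as a testis cell suspension. The study describes its replicates as biological and more of them than the libraries analysed here, and the labels do not tie a library to an animal or pool, so the p-values measure only the spread between these libraries, which may be technical.

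In smooth muscle, calcium and calmodulin switch on myosin light chain kinase, which phosphorylates the regulatory light chain of myosin II and lets the myosin pull on actin filaments. Tropomyosin, calponin and transgelin lie along those filaments, leiomodin starts new ones, and desmin links the contractile units to the rest of the cell. Most of these genes are classical targets of serum response factor (SRF) and its partner myocardin, which act through a DNA element called the CArG box. In the testis, contraction of myoid cells moves fluid and sperm along the tubule. Germ cells and Sertoli cells use the non-muscle relatives of the same proteins for shape and adhesion.

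The control libraries held 40957899 and 43378493 reads and the *Cnot3*-cKO libraries 22192964 and 28019626. Levels are given in CPM, read counts scaled to a common library total after TMM normalisation. *Cnot3* itself had 2362 and 2114 reads in the control libraries against 435 and 571 where it had been deleted, a log2 fold change of -1.48 (standard error 0.13, edgeR quasi-likelihood test, adjusted p = 1.48e-05). Germ cell genes were abundant in both groups, with *Dazl* at 2487 CPM in the control mean and 2144 CPM in the *Cnot3*-cKO mean. Against that, the reads of all 10 contractile genes together made up 0.00548% and 0.00611% of the control libraries and 0.00717% and 0.00806% of the *Cnot3*-cKO libraries. Their summed level was 55.7 and 63.0 CPM in control libraries and 70.2 and 78.8 CPM in *Cnot3*-cKO cells, so the groups did not overlap. Most of this rise lay in *Myl9* (means of 7.05 CPM in control and 16.7 CPM in *Cnot3*-cKO libraries) and *Acta2* (5.53 and 10.6 CPM). *Mylk*, the largest term of the sum, was slightly lower in *Cnot3*-cKO libraries (34.8 and 31.9 CPM). In RNA from a sorted population, fewer cells of a type and less RNA per cell cannot be told apart.

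**Figure D1:**
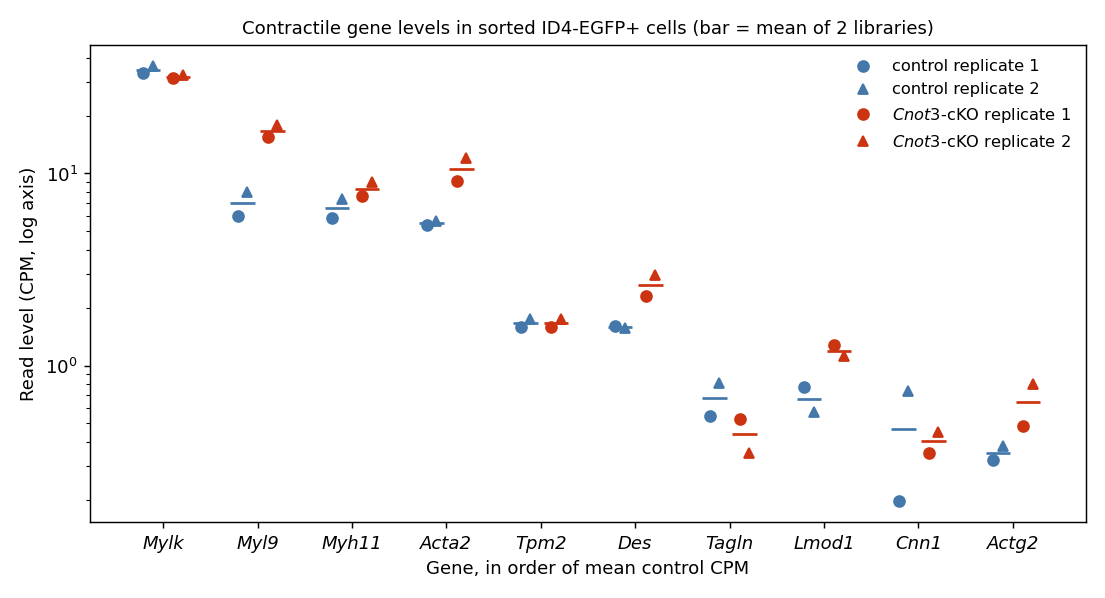
Level of each contractile gene in the 4 libraries, in CPM on a log axis, with genes ordered by mean control level. Circles and triangles are replicates 1 and 2, and short bars are group means; *Myl9* and *Acta2* have the widest gap between groups relative to the spread within them.

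A gene was called where its adjusted p was below 0.01 and its level differed more than 2-fold. Of the 10 genes, 1 was called higher in *Cnot3*-cKO cells and 0 were called lower. Over all tested genes the shares were 4.03% higher and 0.735% lower. *Myl9* was the gene called. *Acta2* passed the p threshold but not the limit on the fold change, and the other 8 genes passed neither. For 6 of the 10 genes the lower *Cnot3*-cKO library exceeded the higher control, and for 2 genes the order was the opposite, against 30.5% and 28.6% of all tested genes. The median log2 fold change of the 10 was 0.53, with a range from -0.63 to 1.24, while the median over all tested genes was 0.0089. That background moved with level. Among genes below 1 CPM in controls, where 4 of the 10 members lie, the median was 0.34 and 1.68% were called higher. From 1 to 4 CPM, which holds 2 members, the values were 0.104 and 7.17%, and from 4 to 16 CPM, which holds *Myl9*, *Acta2* and *Myh11*, they were 0.054 and 9.26%. A gene low in controls could pass the expression filter through the *Cnot3*-cKO libraries. The positive median of the lowest class may come in part from this, which was not tested. The median of the 10 contractile genes moved from 0.33 without *Cnot3*-cKO replicate 2 to 0.66 without control replicate 2. With 2 libraries against 2, the smallest two-sided p of an exact permutation test is 0.333, so each adjusted p rests on the dispersion fitted across genes.

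*Myl9* encodes the smooth muscle regulatory light chain, the subunit whose phosphorylation starts contraction. It lies on the forward strand of chromosome 2 of GRCm38, from 156775420 to 156781658. It had 6.03 and 8.06 CPM in the control libraries and 15.5 and 17.8 CPM in the *Cnot3*-cKO libraries, so the lowest *Cnot3*-cKO value was above the highest control value. The group means were 7.05 ± 1.43 and 16.7 ± 1.66 CPM (SD, n = 2 per group). This was a 2.37-fold difference (log2 fold change 1.24, standard error 0.20, adjusted p = 9.91e-04). *Myl9* kept its call without any 1 of the libraries, with log2 fold changes from 1.04 to 1.46. After every library had been thinned to the smallest total, which removes the difference in depth, its log2 fold change was 1.18.

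*Acta2* encodes smooth muscle α-actin, the filament subunit most often used to stain myoid cells. It lies on the reverse strand of chromosome 19, from 34241090 to 34255590. Control libraries had 5.41 and 5.66 CPM, and *Cnot3*-cKO libraries had 9.14 and 12.1 CPM. The controls lay close together and both *Cnot3*-cKO libraries lay above them, with means of 5.53 ± 0.173 and 10.6 ± 2.08 CPM (SD, n = 2 per group). The ratio was 1.92 (log2 fold change 0.94, standard error 0.21, adjusted p = 0.00828). *Cnot3*-cKO replicate 2 carried more of this difference: without it the log2 fold change was 0.72 (adjusted p = 0.0820), and without *Cnot3*-cKO replicate 1 it was 1.12 and the gene was called.

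*Actg2*, the γ-actin of visceral smooth muscle, was much scarcer, with 13 and 16 reads in control libraries against 11 and 23 reads in the *Cnot3*-cKO cells. That is 0.323 and 0.380 CPM against 0.486 and 0.803 CPM, with a log2 fold change of 0.88 whose 95% interval ran from -0.57 to 2.32. Its interval spans that of *Acta2*, and its change was not detectable at this depth (adjusted p = 0.408). Reads of *Acta2* and *Actg2* could be told apart: of all 75-base windows in their transcripts, 0% occurred in a transcript of another gene, and at 50 bases the shares were 0.326% and 0%.

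*Myh11*, the smooth muscle myosin heavy chain, is the motor that acts on these filaments. It had 5.83 and 7.39 CPM in control libraries and 7.64 and 9.01 CPM in *Cnot3*-cKO cells. The groups did not overlap, but the nearest libraries differed by less than the gap between the controls. The log2 fold change was 0.33 (95% interval -0.14 to 0.81, adjusted p = 0.330), so that a 2-fold rise lies outside the interval. Its 50-base windows were shared with *Myh9* and *Myh10* in 0.34% of cases and its 75-base windows in 0%.

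*Mylk*, the light chain kinase, had by far the most reads of the 10 genes. It lies on chromosome 16 from 34745210 to 35002420, and one gene model covers long and short forms of the kinase as well as telokin, a small protein made from an internal promoter. Control libraries had 33.4 and 36.1 CPM and *Cnot3*-cKO libraries had 31.4 and 32.5 CPM. The log2 fold change was -0.12 (95% interval -0.39 to 0.14, adjusted p = 0.552), and it became 0.11 when libraries were scaled to germ cell genes. The interval excludes a 2-fold change in either direction, and reads per gene cannot show which form was counted.

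The actin-binding proteins were close to the limit of what these libraries can resolve. *Tpm2*, β-tropomyosin, had 1.59 and 1.76 CPM in control libraries and 1.59 and 1.75 CPM in *Cnot3*-cKO cells, values that overlap fully (log2 fold change -0.0039, 95% interval -0.80 to 0.79). *Lmod1*, the smooth muscle leiomodin, had 0.770 and 0.570 CPM in control libraries and 1.28 and 1.12 CPM in *Cnot3*-cKO cells. Both *Cnot3*-cKO libraries were above both controls, yet with 24 to 32 reads per library the test was not passed (log2 fold change 0.83, 95% interval -0.25 to 1.92, adjusted p = 0.280). *Des*, the intermediate filament protein of muscle, had 1.61 and 1.57 CPM against 2.30 and 2.97 CPM. Its groups did not overlap either, and its interval reached just below 0 (log2 fold change 0.73, 95% interval -0.0023 to 1.46, adjusted p = 0.154).

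*Cnn1*, calponin of smooth muscle, showed the largest disagreement between replicates. Control replicate 1 had 8 reads and control replicate 2 had 31, or 0.199 CPM (exact Poisson 95% interval 0.0858 to 0.391) and 0.737 CPM (0.501 to 1.05). These intervals cover counting error only, and they do not overlap. The *Cnot3*-cKO libraries, at 0.353 and 0.454 CPM, lay between the controls. The log2 fold change of -0.21 (95% interval -1.88 to 1.46) turned to 1.001 without control replicate 2 and to 0.038 when libraries were scaled to germ cell genes, so it has no stable sign.

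*Tagln*, transgelin or SM22α, had the lowest log2 fold change of the 10 genes. It had 22 and 34 reads in control libraries against 12 and 10 reads in the *Cnot3*-cKO cells, or 0.546 and 0.808 CPM against 0.530 and 0.349 CPM. The groups were separated by a gap far smaller than that between the controls, and the log2 fold change of -0.63 had a 95% interval from -2.01 to 0.74 (adjusted p = 0.547). *Tagln* lies on the reverse strand of chromosome 9, from 45929619 to 45936058, and 67.9% of its exon bases lie under exons of genes on the other strand, 1241 bases under *Gm48529* and 108 under *Pcsk7*. The library kit keeps strand, but whether strand was used in counting is not given in the sources used here. Over these libraries, 83.0% of the 53 protein-coding genes with over 90% of their exon bases in such overlaps had 3 reads or fewer in all, against 17.7% of 16356 genes with no overlap. The share was 16.8% of the 119 genes with an overlap of 50 to 75%, the class that holds *Tagln*. It was 2.59% of 4480 genes with an overlap up to 25%, and 7.44% of 524 genes from 25 to 50%. Low counts in the class of *Tagln* were thus more common than at smaller overlaps, though not more common than without any. A cut at 3 reads cannot show a partial loss of reads, and whether *Tagln* was undercounted was not tested. The median reads per kilobase over all libraries was 550 up to 25%, 219 from 25 to 50% and 103 in the class of *Tagln*. It was 31.8 from 75 to 90% and 130 with no overlap. *Ilk*, the integrin-linked kinase, with 89.7% of its exon bases under *Taf10* and *Rrp8*, had 2 reads in 1 library and 0 in the others, while *Taf10* had 315 to 951. Among the other members, the shares were 6.85% for *Mylk*, 5.86% for *Des* and 0% for the rest.

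**Figure D2:**
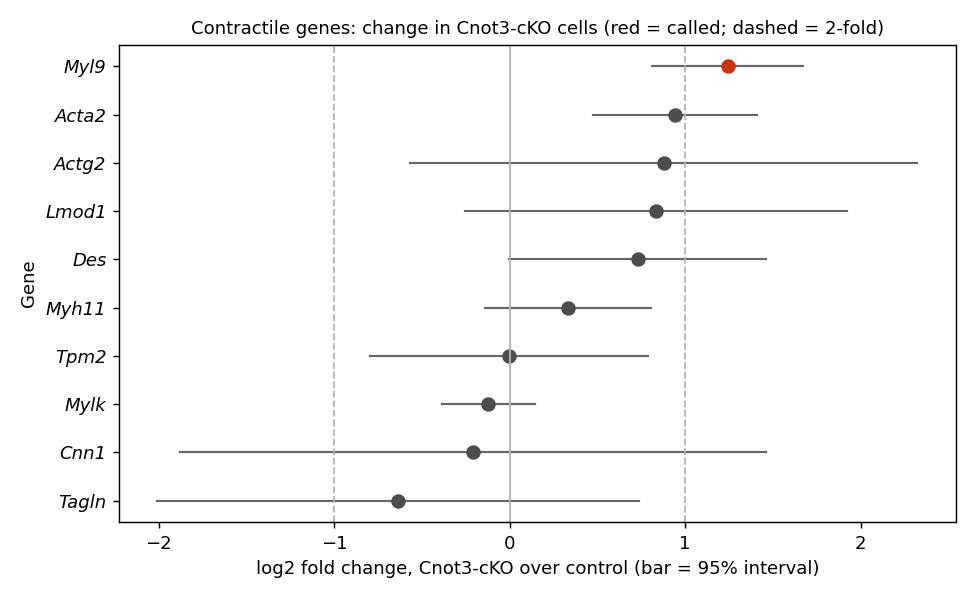
Log2 fold change of each contractile gene in *Cnot3*-cKO over control cells, with its 95% interval from the edgeR fit on 2 libraries per group. *Myl9* (1.24) is the gene called, *Acta2* (0.94) has an interval above 0, and the intervals of the other 8 genes include 0.

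Levels of different genes were compared only per length, as CPM per kilobase of annotated exon. In controls *Myl9* was first with 6.06 ± 1.23 (SD, n = 2), followed by *Mylk* with 3.09 ± 0.169, *Acta2* with 2.52 ± 0.0786 and *Myh11* with 0.870 ± 0.145. *Tpm2* (0.575), *Des* (0.424), *Tagln* (0.341), *Actg2* (0.226), *Cnn1* (0.171) and *Lmod1* (0.170) followed. The libraries of neighbours in this order did not overlap, except that *Cnn1* overlapped both *Actg2* and *Lmod1*. In *Cnot3*-cKO cells *Myl9* had 14.3 ± 1.43 and *Acta2* had 4.83 ± 0.948 CPM per kilobase, which placed *Acta2* above *Mylk* at 2.84 ± 0.0656. *Cnn1* was last there with 0.148 ± 0.0261, and *Tagln* was ninth with 0.221 ± 0.0642. The rank of *Tagln* in both groups is uncertain, because 67.9% of its exon bases lie under exons of the other strand.

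Set beside their relatives in the same protein families, most contractile genes were minor members. *Actb*, a cytoplasmic actin, had 545 CPM per kilobase in controls, 216 times the level of *Acta2*. The 2 smooth muscle actins together gave 0.426% and 0.406% of the summed level of the 4 actins in controls, compared with 0.609% and 0.842% in *Cnot3*-cKO cells. *Myh11* gave 2.37% and 2.71% of its sum with the non-muscle myosins *Myh9*, *Myh10* and *Myh14* in controls, compared with 2.50% and 3.02% in *Cnot3*-cKO cells. *Cnn1* gave under 1% of the calponins in each library, *Tpm2* gave from 0.742% to 1.16% of the tropomyosins, and *Tagln* gave from 0.565% to 2.75% of the transgelins. The share of *Tagln* may be too low if reads under the exons of the other strand were not counted, which was not tested. *Lmod1* was a larger share of the leiomodins, with 46.5% and 33.9% in controls against 72.7% and 50.5%. *Lmod3* was also scarce, with 0.241 CPM per kilobase in the control mean and 0.144 in the *Cnot3*-cKO mean. *Lmod2* was lower still, with 0.0120 and 0.0553. *Des* gave 9.02% and 9.64% of its sum with *Vim* in controls against 4.57% and 5.78%.

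*Myl9* and *Mylk* were also larger shares of their families. *Myl9* made up 25.8% and 29.1% of its sum with *Myl12a*, a non-muscle regulatory light chain, in controls, compared with 50.5% and 57.0% in *Cnot3*-cKO cells. *Myl12a* had means of 53.4 and 41.4 CPM (log2 fold change -0.37, adjusted p = 0.0438) and was not called. Its exons share 462 bases with those of its near-identical neighbour *Myl12b*, so reads of this pair are uncertain, and *Myl12b* is not in the sum. *Mylk* made up 82.4% and 83.6% of the 4 light chain kinases in controls, compared with 54.4% and 50.9% in *Cnot3*-cKO cells. *Mylk* itself did not pass the test, whereas *Mylk3*, the cardiac kinase, rose from 2.35 to 10.1 CPM (log2 fold change 2.10, standard error 0.23, adjusted p = 7.99e-05).

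**Figure D3:**
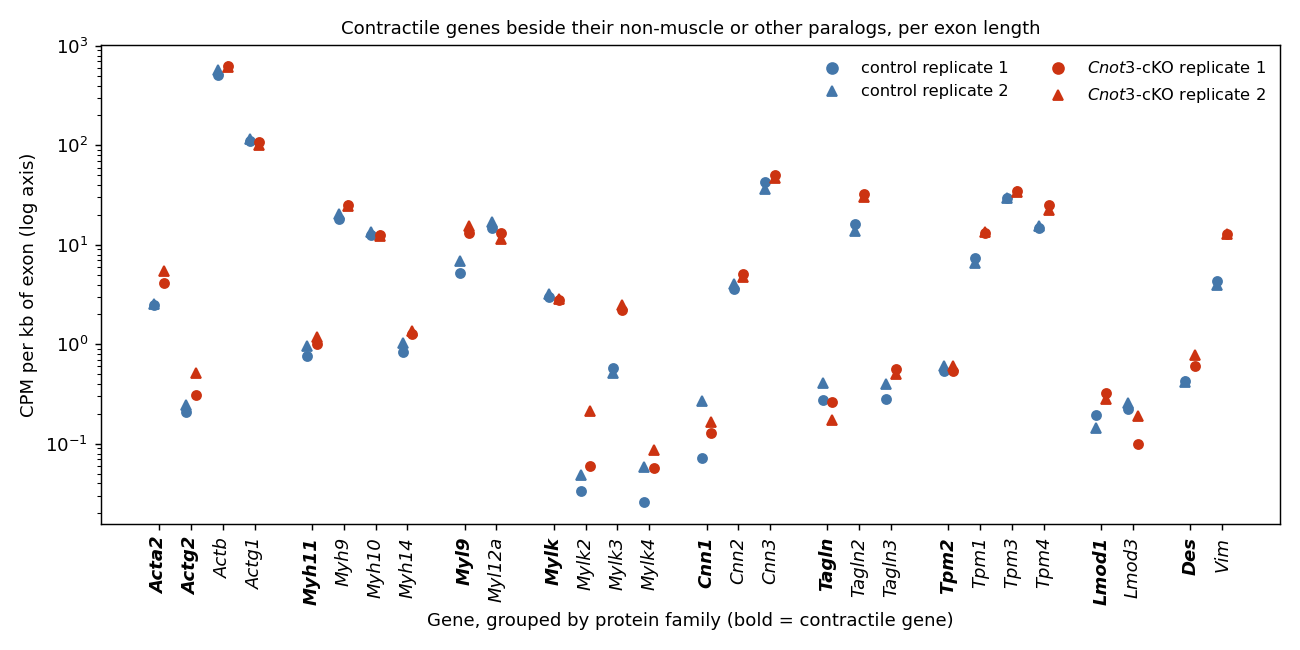
Level of each contractile gene (bold) and of its relatives in the same protein family, in CPM per kilobase of exon on a log axis, with 1 point per library. *Actb* stands near 545 in controls while *Acta2* is at 2.52; *Myl9* and *Mylk3* are the called genes among the light chains and kinases, and *Mylk2*, too low to be tested, also has its *Cnot3*-cKO points above its controls.

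Of 25 such relatives, 23 were tested, 3 were called higher and 0 lower, and their median log2 fold change was 0.30. For this and the later lists, the shares over all tested genes were 4.03% higher and 0.735% lower. Besides *Mylk3*, the called genes were *Vim* and *Tagln2*. *Vim*, the intermediate filament protein of mesenchymal and Sertoli cells, rose from 19.6 to 60.8 CPM (log2 fold change 1.64, standard error 0.12). *Tagln2*, the widely expressed transgelin, rose from 31.5 to 65.7 CPM (1.06, standard error 0.12). *Tpm1* (0.92) and *Tpm4* (0.66), tropomyosins found in muscle and other cells, had adjusted p-values of 1.05e-04 and 0.00195 without reaching the fold change limit, as did *Myh9* (0.37). On the lower side this held for *Tmod2*, a tropomodulin that caps actin filaments (-0.60, adjusted p = 0.00178). *Actg1* (-0.12, adjusted p = 0.336) and *Myh10* (-0.08, adjusted p = 0.591) did not pass the test.

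Of 38 other smooth muscle genes, which encode adhesion, membrane and signalling proteins of the contractile cell, 33 were tested. *Tns1*, tensin of focal adhesions, was the 1 gene called higher (from 13.6 to 36.6 CPM, log2 fold change 1.43, standard error 0.18), 0 were called lower, and the median was 0.35. A further 6 genes of this list passed the p threshold on the higher side without reaching the fold change limit. They were *Synm*, *Parva*, *Casq2*, *Kcnma1*, *Dmd* and *Dtna*, with log2 fold changes from 0.56 (*Dmd*) to 0.96 (*Parva*). On the lower side 1 did so, *Cacna1c*, the L-type calcium channel of smooth muscle. Its means were 40.9 CPM in control libraries and 23.8 CPM in *Cnot3*-cKO libraries (log2 fold change -0.78, adjusted p = 9.34e-04). The integrin subunit *Itgb1* (324 CPM and 328 CPM) and the actin crosslinker *Flna* (412 CPM and 450 CPM) were the most abundant genes of this list and were not called. *Pln* and *Kcnmb1*, regulators of calcium handling and potassium channels in smooth muscle, were too low to be tested. Exons of the other strand cover 64.7% of the exon bases of *Pln*, and whether it was undercounted was not tested.

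Genes that set contraction on and off gave 2 calls among 21 tested of 24, both higher. *Edn1*, the vasoconstrictor peptide endothelin 1, rose from 1.78 to 6.75 CPM (log2 fold change 1.92, standard error 0.26), and its receptor *Ednrb* rose from 3.83 to 9.25 CPM (1.27, standard error 0.23). The other receptor, *Ednra*, was at 3.89 and 3.56 CPM (-0.13, adjusted p = 0.824). The myosin phosphatase subunit *Ppp1r12a* (0.31, adjusted p = 0.0129) and the kinases *Rock1* (-0.16, adjusted p = 0.160) and *Rock2* (-0.05, adjusted p = 0.735) were not called. On the higher side, 3 genes passed the p threshold without reaching the fold change limit, among them the oxytocin receptor *Oxtr*, and 0 did so on the lower side. The list's median was -0.035, and it was 0.0071 with upper quartile scaling, 0.032 with library size only and 0.20 with scaling to germ cell genes.

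The transcription factors that control the contractile genes included 18 tested of 19. *Srf* had means of 38.0 and 31.6 CPM (log2 fold change -0.26, adjusted p = 0.244). *Myocd*, the smooth muscle and cardiac coactivator of SRF, was scarce, with 19 to 42 reads per library and means of 0.878 and 0.817 CPM (-0.11, 95% interval -1.26 to 1.04). The coactivators *Mrtfa*, at 37.5 and 26.3 CPM (-0.51, adjusted p = 0.0155), and *Mrtfb*, at 123 and 87.0 CPM (-0.50, adjusted p = 0.00856), lay below controls in both *Cnot3*-cKO libraries without being called. *Foxf1*, a mesenchymal factor, had a log2 fold change of -0.85 (adjusted p = 2.99e-04) and was not called either. *Gata6* (1.81), *Mef2c* (1.64) and *Elk3* (1.44) rose and 0 genes were called lower. *Gata6* is also a factor of Sertoli and Leydig cells, *Mef2c* also acts in endothelial cells and macrophages, and *Elk3* is an SRF partner best known from endothelium. The median of the list was -0.15, and it was 0.080 with scaling to germ cell genes.

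Promoter windows of RefSeq on GRCm38.p6 (250 bases before and 50 after the start) matched 7 of the 10 members. *Myh11*, *Actg2* and *Tagln* had no entry. An exact CArG box occurred in 1 of the 7 genes, *Myl9*, against 1.81% of all 27025 genes with a window. With 1 mismatch allowed, it occurred in *Acta2*, *Lmod1* and *Myl9*, against 23.8% of all genes. The element reads the same on both strands, and the matches are a description of the letters and not evidence of binding. The boxes of *Myl9* and *Acta2* are shown because these were the members with an adjusted p under 0.01, and those of *Lmod1* are not printed. The box is in capitals and the sequence runs 5′ to 3′ on the strand of the gene. Boxes start 161 and 99 bases before the RefSeq start in *Myl9*, and 84 and 34 in *Acta2*. The first *Myl9* box is the exact one, at chr2:156775293-156775322 with its flanks. The other stretches lie at chr2:156775355-156775384, and on the reverse strand at chr19:34255438-34255467 and chr19:34255388-34255417, both of which overlap an exon of GENCODE M21.
Myl9, exact: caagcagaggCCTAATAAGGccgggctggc
Myl9, 1 mismatch: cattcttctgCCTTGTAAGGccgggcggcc
Acta2, 1 mismatch: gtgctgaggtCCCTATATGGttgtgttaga
Acta2, 1 mismatch: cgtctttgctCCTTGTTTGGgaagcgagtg
*Srf*, *Actg1*, *Cnn2*, *Myl6*, *Vcl*, *Dmd* and the striated actins *Acta1* and *Actc1* were among the genes of the other lists with an exact box. It occurred in 3 of 21 non-muscle relatives, 5 of 31 other smooth muscle genes and 5 of 25 striated muscle genes with a window. The exact box was thus not particular to the members. It occurred in 1 of 11 transcription factors, in 0 of 18 genes that set contraction on and off, and in 0 genes of the remaining lists. The motif TATAAA, searched on both strands, was in 0 of the 7 members' windows and in 15.7% of all genes.

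Markers of cells that could accompany sorted germ cells were read in the same libraries. Peritubular genes outside the contractile apparatus, such as *Pdgfra*, *Dcn* and the Hedgehog receptor *Ptch1*, gave 1 of 12 called higher (*Igf1*, log2 fold change 1.06), with a median of 0.41. Their summed level was 469 to 552 CPM in control libraries against 516 to 601 CPM in the *Cnot3*-cKO cells. On the higher side, 2 genes passed the p threshold without reaching the fold change limit. They were *Pdgfra* (log2 fold change 0.60, adjusted p = 0.00766) and *Dcn* (0.64, adjusted p = 0.00575). On the lower side 1 did so, *Ptch1* (-0.84, adjusted p = 7.14e-04). Of the pericyte genes, 0 of 7 tested were called and the median was 0.50. Their sum, 372 to 393 CPM in control libraries against 554 to 606 CPM in the *Cnot3*-cKO cells, was mostly *Mcam* (369 and 566 CPM), while the pericyte regulator *Rgs5* had means of 1.04 and 1.47 CPM. Endothelial genes gave 2 of 10 called higher, *Pecam1* and *Kdr*, with sums of 47.5 to 50.4 CPM and 67.2 to 74.9 CPM. Over all tested genes, 4.03% were called higher, with 7.17% from 1 to 4 CPM in controls and 9.26% from 4 to 16 CPM.

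The other somatic lists moved further. All 12 Sertoli cell genes were called higher, with a median of 1.96 and sums of 371 to 382 CPM in control libraries against 1114 to 1145 CPM in the *Cnot3*-cKO cells. Of the Leydig cell genes, 4 of 5 tested were called higher (median 1.35, sums 322 to 368 and 831 to 896 CPM), and *Insl3* had 0 reads in all 4 libraries. In GENCODE M21, 64.8% of the exon bases of *Insl3* also belong to *Jak3* on the same strand, so its reads are uncertain. Of the macrophage genes, 8 of 9 were called higher (median 1.21, sums 178 to 271 and 487 to 599 CPM). Germ cell genes gave 1 of 12 called lower, *Lin28a* (log2 fold change -1.09), and a median of -0.26. The part of these cells in the values of *Myl9* and *Acta2* was not tested.

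**Figure D4:**
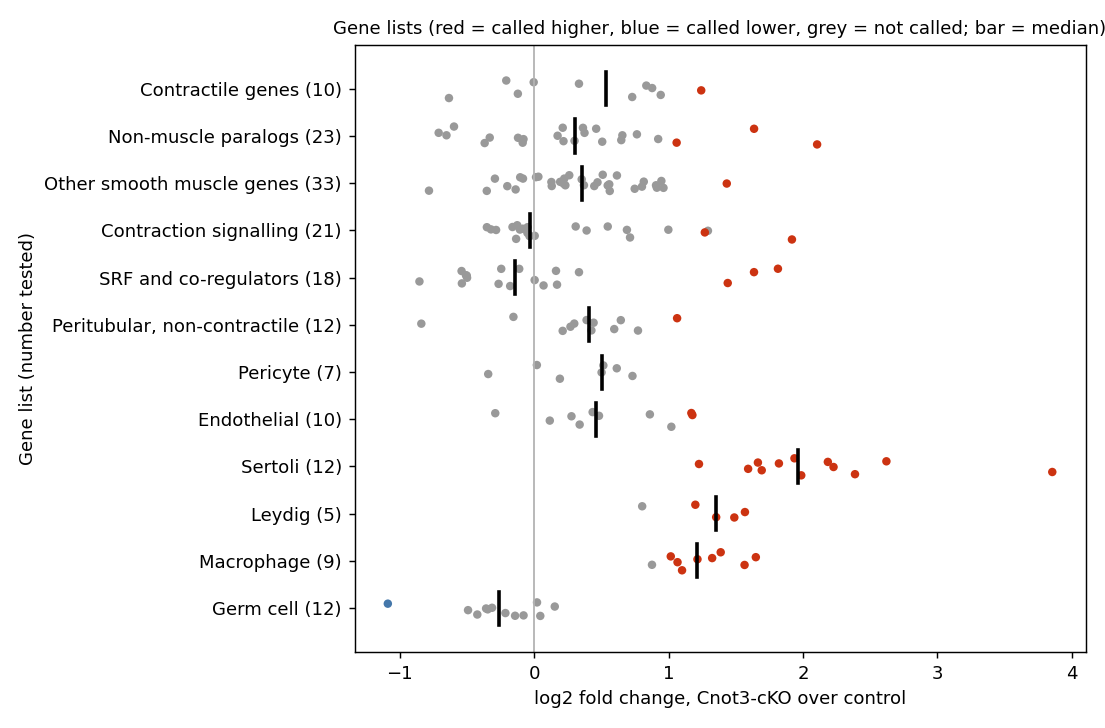
Log2 fold change of every tested gene in the lists drawn, in *Cnot3*-cKO over control cells, with the number tested in brackets and the median as a black bar. The lists of striated muscle (median 0.76) and of undifferentiated spermatogonia (median 0.34) are not drawn. The contractile genes spread from -0.63 to 1.24 around a median of 0.53, and the Sertoli, Leydig and macrophage genes lie further to the right.

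The genes whose levels followed *Acta2* most closely over the 4 libraries, by Euclidean distance of centred log2 CPM among 15518 genes, were *Bmp1* (distance 0.0602), *Cped1* (0.0631) and *Cmpk2* (0.0632). *Bmp1*, a procollagen protease, had 12.3 and 13.2 CPM in control libraries and 21.7 and 27.3 CPM in *Cnot3*-cKO cells. With 4 libraries this likeness mostly repeats the difference between the groups, and none of the 3 genes was called.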

How the data were processed

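RNA-seq was available for 2 control and 2 *Cnot3*-cKO libraries of ID4-EGFP+ cells. Values were deposited as whole read counts per gene symbol, 1 list per library, not normalized. Per the labels and the methods of the study, the authors removed low-quality reads, mapped the rest to mm10 using STAR and obtained counts from featureCounts with GENCODE M24. The strand setting and the treatment of reads that match several genes are not given in the sources used here. The study describes 3 biological replicates, and the 2 libraries per group given here were analysed. No column of another series was present.

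Counts were fitted over the whole table with edgeR 4.0.16 in R 4.3.3 (TMM scaling, default expression filter, quasi-likelihood F test, Benjamini-Hochberg adjustment over 23952 genes, no covariates). Calls needed an adjusted p below 0.01 and a more than 2-fold difference. Standard errors come from the F statistic, and 95% intervals use 2.17 standard errors. The floor of detection was 3 counts, or 0.0713 to 0.132 CPM. The fitted biological coefficient of variation was 0.145. The procedure was tested on simulated data. Exon lengths and overlaps came from GENCODE M21 on GRCm38 and promoter windows from RefSeq. Alternatives covered scaling, filters, dispersions, DESeq2 1.42.0, glmTreat, thresholds, thinning, a replicate block and leaving out each library. Genes named were the members, *Cnot3*, called or abundant genes of the 13 other lists, SRF and its coactivators, relatives of the members, and 3 genes nearest to *Acta2*. *Cacna1c*, *Tmod2*, *Foxf1*, *Oxtr*, *Ednra*, *Pln*, *Kcnmb1*, *Ilk*, *Dcn*, *Rgs5*, *Insl3* and the untested striated genes were named after their values were seen. So were *Synm*, *Parva*, *Casq2*, *Kcnma1*, *Dmd* and *Dtna*. The members and lists were chosen with earlier results of these data known. The search for CArG boxes, the overlaps with genes of the other strand and the family sums were added after the values had been seen.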

Additional observations from a re-analysis of the deposited data

How the results depend on the processing

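*Myl9* kept its direction under all 17 alternatives and its call under 16, and *Cnot3* likewise. The exception for both was the test against a fold change of 2 (glmTreat), where *Cnot3* had a log2 fold change of -1.48 with an adjusted p of 0.0346 and *Myl9* an adjusted p of 0.780. That test asks for more by construction and left 0 contractile genes higher, 2 genes of the 4 contraction lists higher (9 otherwise) and, of the 9 marker lists, 8 higher (30 otherwise) and 0 lower (2 otherwise). *Acta2* was also called with library size only, with scaling to germ cell genes, with no fold change limit and without *Cnot3*-cKO replicate 1, which made 2 contractile genes higher in each case. Library size only left 1 gene of the marker lists lower. Scaling to germ cell genes shifted the median of all tested genes to 0.24. It gave a median of 0.76 for the contractile genes, 15 contraction genes higher and 0 marker genes lower, and turned *Cnn1* to 0.038, *Mylk* to 0.11 and *Tpm2* to 0.23. *Tpm2* was also positive with upper quartile scaling (0.036), library size only (0.062) and a mean count of at least 50 (0.028), and without 1 library it ranged from -0.090 to 0.059. With no fold change limit, 21 contraction genes were higher and 4 lower, and 6 marker genes were lower. Over all genes that rule called 1488 higher and 1125 lower, against 965 and 176, and glmTreat called 87 and 5. The higher share of called genes was 84.6%, but 56.9% with no fold change limit, 94.6% with glmTreat and 95.4% with scaling to germ cell genes. Without filtering, 285 genes were lower. At an adjusted p under 0.05, 1452 were higher and 284 lower. Thinning left 9 contractile genes tested, with a median of 0.74. Leaving out 1 library gave 1 to 2 contractile genes higher, medians of 0.33 to 0.66, 8 to 14 contraction genes higher, and a range of -0.87 to 1.001 for *Cnn1*. Ordering by reads instead of reads per length moved 6 contractile genes to another rank. With 1 mismatch allowed in the CArG box, 3 genes had one in place of 1. The replicate numbers are shared by name only (the deviations of the libraries numbered 1 correlated by 0.0854). The replicate block called 1155 genes higher and 217 lower, with *Myl9* at 1.25 and *Acta2* at 0.93, and changed no call of a contractile gene. Causes were not tested. *Cnn1*, *Actg2*, *Tagln* and *Lmod1* had 8 to 34 reads per library and wide intervals, and the *Cnn1* controls differed by more than counting error.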

Other observations

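Genes of striated muscle were read as a further list. Of 28, 15 could be tested, 1 was called higher and 0 lower, and their median log2 fold change was 0.76. *Tnni3*, cardiac troponin I, rose from 7.70 to 21.0 CPM (log2 fold change 1.45, standard error 0.17, adjusted p = 1.52e-04). The giant sarcomere protein *Ttn* had means of 239 and 377 CPM (0.66, adjusted p = 0.00172), and the cardiac myosin heavy chain *Myh6* was at 54.2 and 91.9 CPM (0.76, adjusted p = 0.0011). For 11 of the 15 genes the lower *Cnot3*-cKO library exceeded the higher control, against 30.5% of all tested genes. The striated actins *Acta1* and *Actc1*, the muscle creatine kinase *Ckm* and the myogenic factors *Myog* and *Myod1* were all too low to be tested. Markers of undifferentiated spermatogonia were 2 higher (*Id4*, 1.04, and *Eomes*, 1.39) and 1 lower (*Nanos3*, -1.07) of 12, with a median of 0.34.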
